A study of Mus musculus with 6 samples.

Results

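The nuclear genes for oxidative phosphorylation were taken from a gene count table of mouse liver by name. Names starting with Ndufa, Ndufb, Ndufc, Ndufs or Ndufv and a number, with Uqcr or Atp5, the names Sdha to Sdhd, and the numbered Cox4 to Cox8 families were kept. Names ending in -ps and a digit were left out. Of 55367 gene names, 101 matched, 95 stayed after the -ps names were removed, and 89 had at least 60 counts summed over the 6 libraries. These 89 comprise 41 genes named for complex I, 4 for complex II, 8 for complex III, 16 for complex IV and 20 for complex V, with Ndufa4 and Ndufa4l2 placed in complex IV. Just inside the minimum were Cox7a1 with 117 counts and Atp5g2 with 118, and just outside it Cox6b2 with 21 and Cox8b with 11.

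The RNA came from whole liver of C57BL/6J mice, 3 libraries from homozygous Lmln mutants (Lmln-/-, called Lmln-KO) and 3 from wild-type animals (WT). The product of Lmln is invadolysin, a metalloprotease. All animals were 46 weeks old except that of Lmln-KO replicate 3, which was 39 weeks old. The labels name neither the sex of the animals nor the extent of the Lmln deletion, and they do not say that each library came from its own animal, so the p-values measure the spread between these libraries.

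Oxidative phosphorylation takes place in the inner mitochondrial membrane. Complex I oxidises NADH and complex II oxidises succinate, both pass electrons to coenzyme Q, complex III carries them to cytochrome c and complex IV to oxygen. Complexes I, III and IV pump protons, and complex V, the ATP synthase, uses the returning protons to make ATP. Most subunits are encoded in the nucleus and imported, while a small set of hydrophobic core subunits is encoded in mitochondrial DNA. Hepatocytes, the main parenchymal cell of the liver, are rich in mitochondria.

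By annotation or name, not all 89 are plain subunit genes. By the GENCODE M21 annotation, 9 are processed pseudogenes, which are copies of a spliced mRNA put back into the genome. Cox5b-ps is typed as protein-coding but is named as a copy of Cox5b, and Ndufb1-ps is typed as a noncoding RNA of a bidirectional promoter. This type alone does not show whether Ndufb1-ps encodes a subunit. The other 78 are protein-coding. Reads were 36 bases long, and a read that fits a parent gene and its copy alike cannot be placed with certainty. The following stretches of 72 coding bases in GRCm38 are shown for that reason. They are the start of the longest coding segment of each parent in 1 exon, read 5′ to 3′, and capitals mark positions at which parent and copy carry different bases. Ndufs5 (chr4:123716008-123716079, minus strand) and Ndufs5-ps (chr16:42955631-42955702, plus strand) had 0 differences over the 72 bases, as had Ndufb4 (chr16:37654288-37654359, minus strand) and Ndufb4c (chr15:73809825-73809896, minus strand). Ndufa11 (chr17:56721319-56721390, plus strand) and Ndufa11b (chr16:22053700-22053771, plus strand) had 2, with 63 identical bases in a row.
Ndufs5 and Ndufs5-ps: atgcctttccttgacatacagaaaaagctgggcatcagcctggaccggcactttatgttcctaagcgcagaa
Ndufb4 and Ndufb4c: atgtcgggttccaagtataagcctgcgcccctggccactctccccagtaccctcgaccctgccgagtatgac
Ndufa11: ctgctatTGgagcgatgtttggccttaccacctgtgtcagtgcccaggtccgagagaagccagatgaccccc
Ndufa11b: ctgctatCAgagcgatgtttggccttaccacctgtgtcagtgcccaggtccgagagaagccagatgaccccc

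Total counts ran from 20957895 to 22494696 in the Lmln-KO libraries and from 17388360 to 18272045 in the WT libraries. The targeted gene Lmln had 2 to 12 counts in Lmln-KO and 39 to 80 in WT. Xist was abundant in Lmln-KO replicate 3 and WT replicates 2 and 3, and Y-linked transcripts in the other 3 libraries, so the groups differ in their share of each. Hepatocyte markers were present (10 of 10), with a summed level of 104000 to 116000 CPM (counts scaled to a common library size by TMM) in Lmln-KO and 118000 to 136000 CPM in WT. Alb held the largest part of this sum, at 45700, 55400 and 60800 CPM in Lmln-KO and 67700, 62500 and 74300 CPM in WT. Of the 10 genes, 8 had a negative log2 fold change and 2 a positive one. Apob ran the other way without overlap, at 20000, 19900 and 19400 CPM against 19200, 18700 and 16300 CPM. Summed B and plasma cell markers (7 of 7 detected) lay between 14.7 and 29.4 CPM in Lmln-KO and between 30.2 and 302 CPM in WT. Of 12 skeletal and heart muscle markers, Myh1, Myh2, Myh7 and Mb had 0 counts and the whole list summed to 0.981 to 1.46 CPM against 1.15 to 1.6 CPM. Summed T and NK cell markers (7 of 7 detected) were at 1.61 to 1.75 CPM in Lmln-KO and 2.32 to 5.93 CPM in WT. Adipocyte markers (5 of 6 detected, Ucp1 at 0) were at 3.55, 5.53 and 0.256 CPM in Lmln-KO replicates 1 to 3 and 11.8, 0.107 and 0.115 CPM in WT. Cidea had 22, 61 and 0 counts in Lmln-KO and 74, 0 and 0 in WT, and Cfd 52, 54 and 4 against 124, 0 and 0. Both genes together made up nearly all of the sum in the libraries with Y-linked transcripts. Adipoq, Plin1 and Lep had at most 2 counts in any library. The sums of the groups overlapped for Kupffer cell (229 to 273 against 256 to 338 CPM), endothelial (390 to 487 against 432 to 444 CPM), stellate (353 to 489 against 436 to 517 CPM) and cholangiocyte markers (31.4 to 49.9 against 24.5 to 45 CPM), each list detected in full. The log2 fold change was negative for 8 of 8 Kupffer cell, 5 of 7 endothelial, 6 of 7 stellate and 2 of 5 cholangiocyte markers. The Kupffer marker Adgre1 was lower without overlap (21.6, 19.5 and 19.1 CPM in Lmln-KO against 31.1, 29 and 25.7 CPM in WT). So were the stellate marker Col3a1 and the endothelial marker Pecam1, beside 5.73% of all genes (edgeR adjusted p = 0.933 for each of the 3). The part of these differences in the values below was not tested. In bulk tissue, fewer cells of a type and less RNA per cell cannot be told apart.

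Levels of different genes were set side by side only per exon length and scaled to the same total in each library (TPM, mean ± SD over the 6 libraries). Over the protein-coding members, the median level was 61.7 TPM for complex I (35 genes), 191 TPM for complex II (4 genes), 127 TPM for complex III (8 genes), 71.3 TPM for complex IV (14 genes) and 52.7 TPM for complex V (17 genes). By this length, complex II varied least among its subunits, with 2.88-fold between the highest and the lowest level, and complex V most, with 393-fold. The plot of levels by complex shows a few genes, among them Atp5g2, Cox7a1 and Ndufb4, far below the rest.

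**Figure D1:**
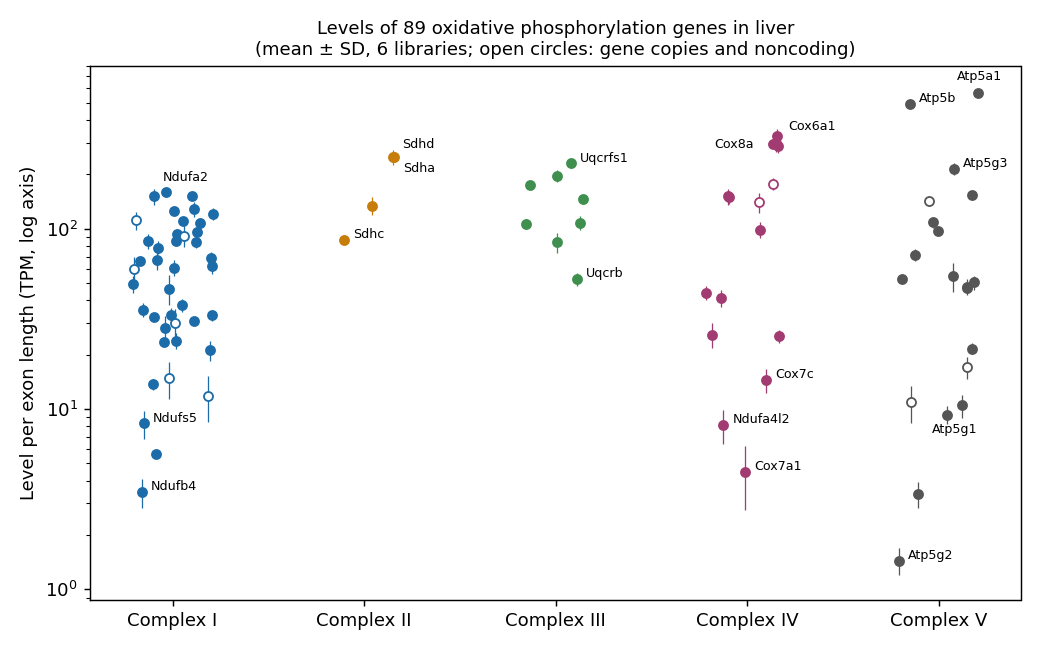
Level per exon length of each of the 89 members (TPM, log axis; points are means and bars the SD over 6 libraries), by complex. Filled circles are protein-coding members and open circles are gene copies and the member typed as noncoding. Atp5a1 (565 TPM) and Atp5b (490 TPM) stand highest and Atp5g2 (1.44 TPM) lowest.

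In complex V, the catalytic F1 head led. Atp5a1, the alpha subunit, was at 565 ± 22.5 TPM and Atp5b, the beta subunit that carries the catalytic sites, at 490 ± 25.9 TPM. Next came Atp5g3 (215 ± 16.8 TPM), which encodes the proton-carrying c subunit of the membrane ring, and Atp5d (154 ± 8.31 TPM), the delta subunit of the central stalk. In complex IV, Cox6a1 (327 ± 29.9 TPM), Cox8a (299 ± 33.7 TPM), Cox4i1 (296 ± 10.6 TPM) and Cox6b1 (289 ± 26.1 TPM) led, and neighbours in this order did not differ beyond their spread. In complex II, Sdhd (250 ± 24 TPM), a membrane anchor, and Sdha (249 ± 14 TPM), the flavoprotein that binds succinate, were level, above the iron-sulfur subunit Sdhb (134 ± 15.4 TPM) and the second anchor Sdhc (86.9 ± 3.77 TPM).

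In complex III, the Rieske iron-sulfur subunit Uqcrfs1 was highest at 230 ± 12 TPM, followed by the small subunit Uqcr10 at 196 ± 14.8 TPM, and Uqcrb was lowest at 52.7 ± 4.42 TPM. In complex I, Ndufa2 (159 ± 9.37 TPM), an accessory subunit, headed the list, and Ndufb4 (3.46 ± 0.641 TPM) and Ndufb2 (5.62 ± 0.233 TPM), accessory subunits of the membrane arm, closed it. These levels divide by the union of all annotated exons, which for some members is far longer than the main mRNA. With the length of the longest GENCODE principal transcript instead (the exon length was kept for 3 protein-coding members without one), the complex medians were 99.8, 256, 220, 129 and 128 TPM for complexes I to V, and complex III then varied least, with 3.06-fold against 3.98-fold for complex II. The leading genes were Ndufa6 (284 TPM), Sdha (354 TPM), Uqcrc1 (264 TPM), Cox4i1 (599 TPM) and Atp5b (1080 TPM). In complex II, Sdha was then followed by Sdhb (262 TPM), Sdhd (250 TPM) and Sdhc (89.1 TPM), so Sdha and Sdhd were no longer level.

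Several subunits of complexes IV and V come in tissue-specific forms, and 1 form held nearly all the signal of the Cox4i, Cox6a, Cox6b and Cox8 sets in each library. Cox4i1 had 3259 to 4437 counts per library, while Cox4i2, known for its expression in lung, had 0 counts in each Lmln-KO library and 0, 1 and 2 in WT. Cox6a1, the form found in liver, had 1542 to 2473 counts, and the heart and muscle form Cox6a2 had 2 counts in Lmln-KO replicate 2 and 0 elsewhere. Cox8a made up 99.7% of the summed TPM of the Cox8 genes in Lmln-KO and 99.9% in WT. The testis-associated genes Cox7b2 and Cox8c had 0 counts in all libraries, and Cox6b2 had 0, 4 and 3 counts in Lmln-KO and 0, 8 and 6 in WT.

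The Cox7a genes and the c-subunit genes were less one-sided. Cox7a2, the form found in liver, held 76.1% ± 1.61 of the summed Cox7a TPM in Lmln-KO and 75.2% ± 0.486 in WT (SD, n = 3). Cox7a2l is known for a factor that can join complexes III and IV into supercomplexes, a function not examined in these mice. It held 21.9% ± 1.24 and 22.2% ± 0.994, and the heart and muscle form Cox7a1 held 2% ± 0.418 and 2.54% ± 1.42. Each share differed between genotypes by less than the larger of its group SDs. The difference exceeded the smaller SD for Cox7a2 (that of WT) and for Cox7a1 (that of Lmln-KO). Of the c-subunit genes, which encode the same mature protein behind different import signals, Atp5g3 held 95.5% ± 0.271 of the summed TPM in Lmln-KO and 94.9% ± 1.11 in WT. Atp5g1 held 3.89% and 4.41%, and Atp5g2 0.588% and 0.696%. These shares depend on the exon lengths used, 2181 bases for Atp5g3, 4912 for Atp5g1 and 1675 for Atp5g2. By principal transcript length the levels over the 6 libraries were 649, 9.69 and 3.3 TPM in the same order, so Atp5g3 led by either length. Ndufa4, now assigned to complex IV, held 94.8% and 94.9% of the sum with its hypoxia-responsive relative Ndufa4l2.

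A low level in this table can also reflect how reads are placed. Of the 36-base stretches of a member's principal transcripts (all its transcripts where none is marked principal, and several together where more are), at least 30% also occurred in a transcript of another gene for 13 protein-coding members, and none did for 23. The share was 87.6% for Atp5g2, 85.3% for Atp5l (3.37 ± 0.55 TPM), 54.3% for Cox7c (14.5 ± 2.27 TPM) and 37.9% for Ndufb4. By exon length, all 4 were at or near the bottom of their complexes. Their levels also depend on that length, which is 6443 bases for Atp5l against 544 for its principal transcript. By principal transcript length they were at 3.3, 39.9, 30.3 and 6.83 TPM in the same order. Not every member with a high share was low, as Atp5o, the stalk subunit OSCP, was at 47.6 ± 4.72 TPM with 55.4% and Atp5pb, the b subunit, at 52.7 ± 2.1 TPM with 44.6%. The share does not separate gene copies from other genes. The partner with the most shared stretches was Donson for Atp5o (252 of 604) and the copy Atp5pb-ps for Atp5pb (430 of 700). The share was 0 for Atp5g3, Sdha, Uqcrfs1 and Cox8a, and 3.86% for Atp5a1. Cox7a1 (4.49 ± 1.75 TPM) and Ndufa4l2 (8.16 ± 1.76 TPM) were low with a share of 0. The part of shared sequence in the low levels was not tested.

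The 10 copies with a parent among the members took from 6.47% to 84.8% of the reads of the pair, depending on the pair and library. In replicates 1 to 3, reads at Ndufs5-ps numbered 343, 352 and 306 for Lmln-KO and 284, 223 and 247 for WT. Its parent Ndufs5, an accessory subunit of complex I, had 72, 77 and 55 counts in Lmln-KO and 61, 42 and 47 in WT. The copy thus outnumbered the parent in all 6 libraries, with 83.2% ± 1.43 of the pair's reads in Lmln-KO and 83.5% ± 1.02 in WT (SD, n = 3). Cox5b-ps likewise held more reads than Cox5b, the zinc-binding subunit of complex IV, with 55.1% ± 3.06 and 59.5% ± 1.45. The share of reads at the copy did not overlap between genotypes in 3 of the 10 pairs. It was higher in Lmln-KO for Ndufs6b (38.3% against 34.6%) and Ndufb4c (50.9% against 41.8%) and lower for Cox5b-ps. The exact two-sided permutation test gave p = 0.1 for each, the smallest that 3 against 3 libraries allow, and 0.333 after Benjamini-Hochberg adjustment over the 10 pairs.

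**Figure D2:**
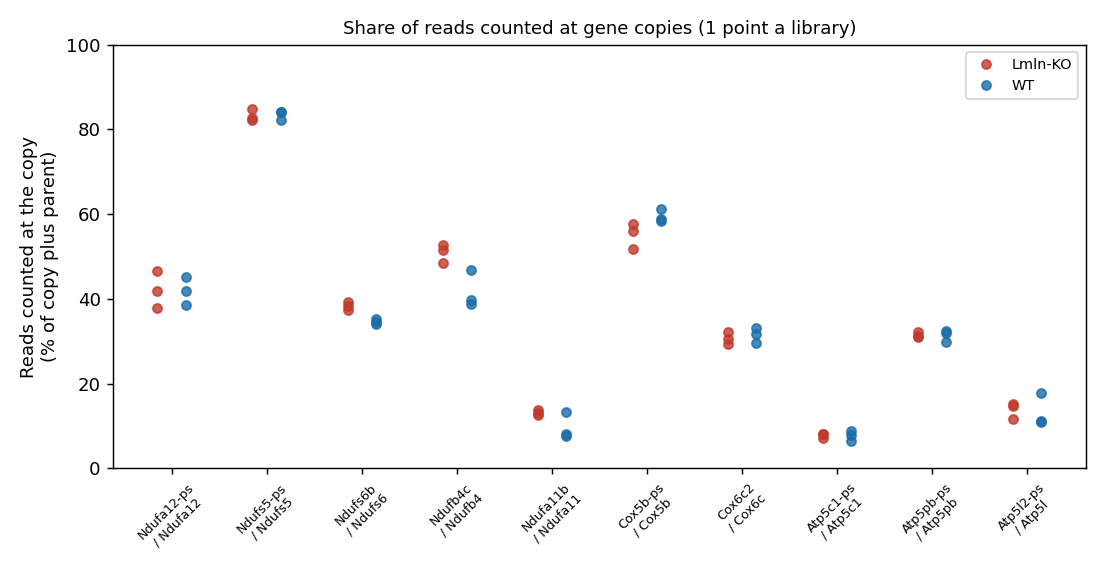
Share of reads counted at the copy, in percent of the reads of copy plus parent (vertical axis), for each of 10 pairs, with 1 point a library (red, Lmln-KO; blue, WT). The pair of Ndufs5-ps and Ndufs5 lies between 82.1% and 84.8% in all libraries, and that of Atp5c1-ps and Atp5c1 between 6.47% and 8.76%.

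The genotype comparison found no member that passed the test. With edgeR's quasi-likelihood test and Benjamini-Hochberg adjustment over all 18703 genes tested, 0 of the 89 members passed an adjusted p of 0.05 (smallest adjusted p 0.933), beside 0 of all genes (0%). All 89 members passed the filter on low counts. At an unadjusted p under 0.05, edgeR marked 1 member, higher in Lmln-KO, beside 871 of all genes (4.66% in either direction, 1.52% higher). DESeq2 called 0 members, beside 22 of all genes (0.118%), and limma-voom called 0 members and 0 genes. With a term for the sex-marker set, edgeR called 0 members beside 1 of all genes (0.00535%) and DESeq2 0 members beside 30 genes (0.16%). With the replicate number as a block, edgeR called 0 members beside 1 gene (0.00535%).

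The members' differences were narrow. Their median log2 fold change (Lmln-KO over WT) was 0.04, with an interquartile range of -0.04 to 0.09, beside 0 and -0.19 to 0.14 for all tested genes. The log2 fold change was at least 0.25 in size for 4 of the 89 members, beside 34.1% of all genes. The 95% interval lay within -1 to 1 on the log2 scale for 87 members, beside 67.8% of all genes, and within -0.5 to 0.5 for 67, beside 33%. The members also had more reads than the tested genes at large, with a median of 37.9 CPM against 7.81 CPM, and varied less between libraries of 1 genotype, with a median SD of 0.18 against 0.254 on the log2 scale. A p above the threshold does not show that levels were equal. By these intervals, a 2-fold difference lay outside the 95% interval of each member but Ndufa11b and Cox7a1.

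**Figure D3:**
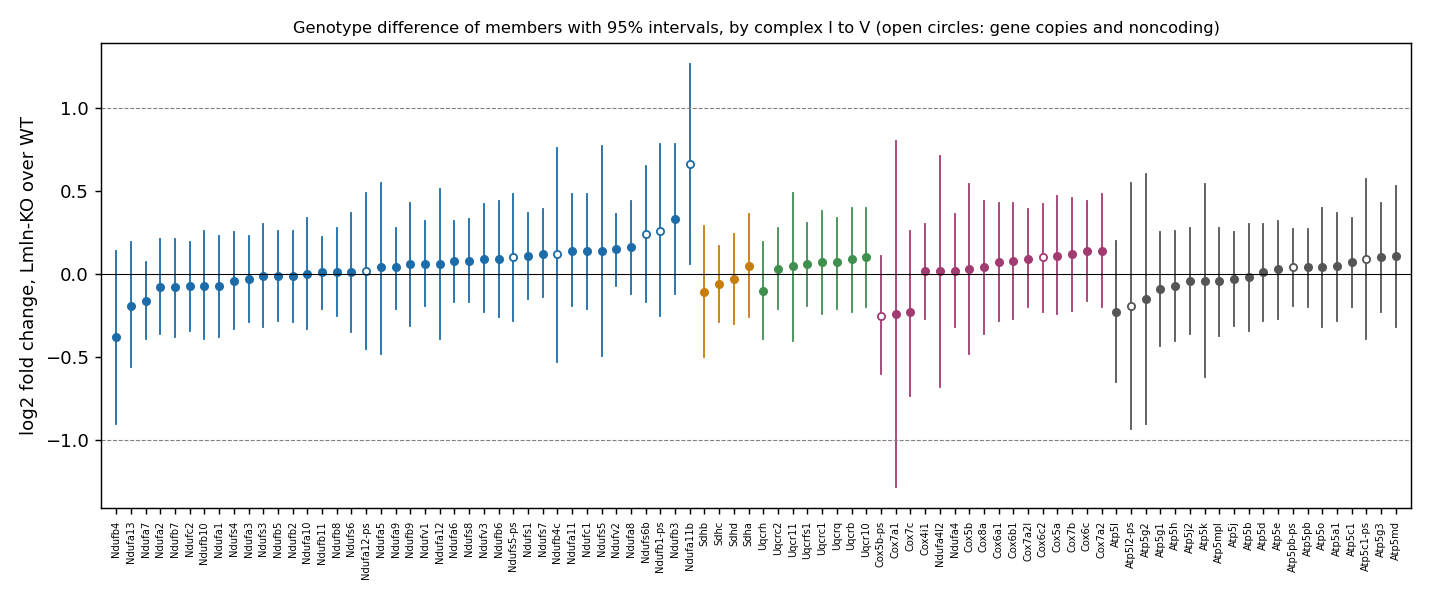
Log2 fold change of the members (Lmln-KO over WT, points, with 1 member not shown) with its 95% interval from edgeR (lines), ordered within complexes I to V. Open circles are gene copies and the member typed as noncoding, and dashed lines mark -1 and 1. Nearly all intervals span 0, and the points run from -0.38 (Ndufb4) to 0.66 (Ndufa11b).

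The groups did not overlap for 4 of the 89 members, 2 higher and 2 lower in Lmln-KO, beside 10.3% of all tested genes (4.61% higher, 5.73% lower). All 4 belong to complex I. The member with the smallest p, Ndufa11b (chromosome 16, 22053510 to 22053933), is the processed pseudogene shown above and not a subunit gene. Replicates 1 to 3 gave 52, 60 and 55 counts for Lmln-KO and 24, 38 and 24 for WT, or 2.56 ± 0.25 and 1.61 ± 0.364 CPM (SD, n = 3). All 3 Lmln-KO libraries were above all WT libraries, with a log2 fold change of 0.66 (SE 0.259, edgeR adjusted p = 0.933). Its parent Ndufa11, an accessory subunit of the membrane arm, was at 17.5, 18.8 and 14.6 CPM in Lmln-KO and 16, 13.4 and 16.8 CPM in WT, which overlapped. With the reads of copy and parent added together, the log2 fold change was 0.20 (SE 0.131, edgeR adjusted p = 0.933).

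Ndufv2, a core iron-sulfur subunit of the NADH-oxidising arm, was at 78.5, 84.2 and 75.8 CPM in Lmln-KO and 70.6, 72.7 and 72.4 CPM in WT. The Lmln-KO libraries were the higher ones, by a log2 of 0.15 (SE 0.0925, edgeR adjusted p = 0.933). Ndufb4, an accessory subunit of the membrane arm, was lower in each Lmln-KO library, at 2.07, 2.36 and 2.77 CPM against 3.15, 2.78 and 3.46 CPM. Its log2 fold change was -0.38 (SE 0.224, edgeR adjusted p = 0.933). Its copy Ndufb4c, whose sequence occurs in full in the parent's transcripts, was at 2.31, 2.22 and 2.94 CPM in Lmln-KO and 2.08, 1.77 and 3.05 CPM in WT. For the pair taken as 1 gene the log2 fold change was -0.15 (SE 0.206). Ndufa7, another accessory subunit, was at 36.4, 32.8 and 36.9 CPM in Lmln-KO against 37.7, 38.2 and 42.6 CPM in WT, a log2 fold change of -0.16 (SE 0.101).

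By complex, the median log2 fold changes were 0.04 for complex I, -0.04 for complex II, 0.06 for complexes III and IV and 0 for complex V. The 7 core subunits of complex I had a median of 0.08 and the 5 subunits of the F1 head 0.03. Among the other complex I genes, Ndufb3, an accessory subunit, was at 16.2, 20.2 and 13.2 CPM in Lmln-KO and 15.9, 12.6 and 11.1 CPM in WT, which overlapped (log2 fold change 0.33, SE 0.195). In complex II, Sdha was at 420, 489 and 403 CPM in Lmln-KO and 463, 406 and 396 CPM in WT. Sdhb was at 111, 148 and 104 CPM and 140, 107 and 144 CPM. In both genes the values of the genotypes interleaved.

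In complex III, the 8 members lay between a log2 fold change of -0.10 (Uqcrh, the hinge subunit) and 0.10 (Uqcr10). Uqcrfs1 was at 129, 146 and 125 CPM in Lmln-KO and 123, 124 and 136 CPM in WT, which overlapped. In complex IV, the smallest p was that of the copy Cox5b-ps, at 22.9, 23.4 and 16.7 CPM in Lmln-KO and 24.9, 22.3 and 27.5 CPM in WT (log2 fold change -0.25, SE 0.154). Next came Cox7c, a small membrane subunit, at 6.05, 7.46 and 5.46 CPM against 8.49, 5.56 and 8.23 CPM. Both overlapped. Cox7a1 had the widest interval, -1.28 to 0.80, with 23, 17 and 20 counts in Lmln-KO and 17, 10 and 30 in WT.

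In complex V, the smallest p was that of Atp5l, the g subunit at the dimer interface, at 8.07, 9.97 and 7.08 CPM in Lmln-KO and 9.5, 11.4 and 8.41 CPM in WT (log2 fold change -0.23, SE 0.185). The most abundant members were close between genotypes. Atp5a1 was at 746, 843 and 669 CPM in Lmln-KO and 770, 676 and 743 CPM in WT, and Atp5b at 817, 949 and 820 CPM against 869, 798 and 953 CPM. Atp5g3 was at 206, 232 and 172 CPM against 212, 173 and 184 CPM. In all 3 genes the Lmln-KO and WT ranges overlapped.

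The members' levels varied more within a genotype than between genotypes. Lmln-KO replicate 2 held the highest level of 59 of the 89 members, beside 3294 of all 18703 genes. The lowest level fell in WT replicate 2 for 38 members and in Lmln-KO replicate 3 for 35, beside 2702 and 2513 of all genes. Relative to each gene's mean over the 6 libraries, the median member was at -0.01, 0.18 and -0.14 (log2) in Lmln-KO replicates 1, 2 and 3 and at 0.08, -0.14 and 0.03 in WT replicates 1, 2 and 3. The median of all tested genes stayed between -0.01 and 0.01. Summed over the members, the level was 6370, 7280 and 5920 CPM in Lmln-KO and 6730, 5860 and 6600 CPM in WT, or 6520 ± 692 and 6400 ± 465 CPM (SD, n = 3). That is 0.6% to 0.703% of a library's counts. The difference between genotypes was smaller than the spread within either group.

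**Figure D4:**
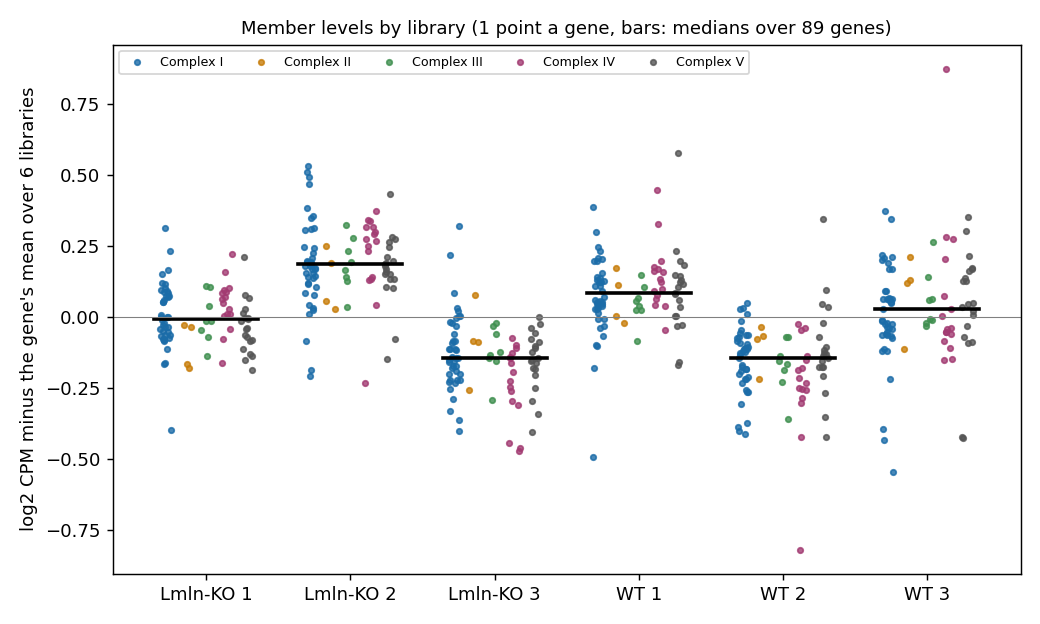
Level of each of the 89 members in each library, as log2 CPM minus the gene's mean over the 6 libraries (vertical axis), coloured by complex; bars are medians over the members. All complexes are shifted up in Lmln-KO replicate 2 (median 0.18) and down in Lmln-KO replicate 3 and WT replicate 2 (both -0.14).

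Complexes I, III, IV and V each had their highest median in Lmln-KO replicate 2 (0.18, 0.18, 0.27 and 0.17) and their lowest in Lmln-KO replicate 3 or WT replicate 2 (-0.14, -0.16, -0.22 and -0.15). Complex II, with 4 genes, stood at 0.13 in both Lmln-KO replicate 2 and WT replicate 3 and at -0.09 in both Lmln-KO replicates 1 and 3. Members tended to move together, with a median pairwise correlation of 0.65 over the 6 libraries. These points share libraries and scaling, so the value is a description. The direction of the small differences followed the libraries as well. Of the 89 members, 59 had a positive log2 fold change (66.3%, beside 49.4% of all genes). Leaving out Lmln-KO replicate 2 gave 21 and a median log2 fold change of -0.05, and leaving out WT replicate 2 gave 33 and a median of -0.04. With upper-quartile scaling the share was 52.8%, and with a term for the Xist or Y-linked set of a library 29 members were positive, with a median of -0.04. Among libraries with Y-linked transcripts (Lmln-KO replicates 1 and 2, WT replicate 1) the median difference was 0.01, and among those with Xist (Lmln-KO replicate 3, WT replicates 2 and 3) it was -0.08. Each of these differences has a single library on 1 side. Lmln-KO replicate 3 came from the 39-week animal and the WT libraries from 46-week animals, so genotype and age cannot be told apart among the libraries with Xist.

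The other genes of the pathway showed no call either. With edgeR, 0 genes of the following lists passed the adjusted p. Assembly factors had a median log2 fold change of 0.07 for complex I (17 tested, 12 positive), 0.10 for complex II (4 tested, 3 positive), 0.07 for complex III (6 tested, 5 positive), 0.05 for complex IV (20 tested, 14 positive) and 0.16 for complex V (4 of 4 positive). The complex I assembly factor Ndufaf4 was at 25.7, 30.2 and 23.7 CPM in Lmln-KO and 22.5, 21.2 and 14.4 CPM in WT. Its groups did not overlap (log2 fold change 0.45, SE 0.18, edgeR adjusted p = 0.933). Atpaf1, which helps assemble the F1 head, was at 5.62, 6.05 and 5.37 CPM against 5.34, 5.03 and 4.09 CPM, also without overlap (log2 fold change 0.24, SE 0.176). The subunits outside the name rule, Ndufab1, Cyc1 and the electron carrier Cycs, were at -0.04, 0.09 and -0.07.

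Of 18 regulators of mitochondrial biogenesis, 1 was lower at an unadjusted p under 0.05 (3.14% of all genes were). This was Polg2, the accessory subunit of the mitochondrial DNA polymerase, at 8.6, 8.6 and 9.17 CPM in Lmln-KO and 11.6, 9.68 and 11.7 CPM in WT (log2 fold change -0.32, SE 0.137, edgeR adjusted p = 0.933). Ppargc1a, the coactivator PGC-1alpha, was at 12.2, 9.54 and 19 CPM in Lmln-KO and 15.4, 19.7 and 33.6 CPM in WT, which overlapped (log2 fold change -0.75, SE 0.372, edgeR adjusted p = 0.933). The nuclear receptor gene Esrra was at 26.4, 25.8 and 25.6 CPM against 23.1, 24.2 and 20.9 CPM (log2 fold change 0.19, SE 0.0991). Of 13 coenzyme Q genes, 2 were lower at an unadjusted p under 0.05. They were Coq10b, a coenzyme Q-binding protein, at 23.7, 33.7 and 23.8 CPM against 40.3, 36.9 and 33.9 CPM (log2 fold change -0.45, SE 0.157), and Coq8b, an atypical kinase, at 11.4, 10 and 11.6 CPM against 13.7, 12 and 17.3 CPM (log2 fold change -0.38, SE 0.162). With the sex-marker term the edgeR unadjusted p-values of Polg2 (0.0562), Coq8b (0.0678) and the member Ndufa11b (0.0518) were above 0.05. Those of Coq10b (0.0051), the assembly factor Ndufaf4 (0.0498) and the tricarboxylic acid cycle gene Idh3a (0.0159) were below it. Of the 89 members, 1 was below it with this term, the copy Cox5b-ps (0.045, log2 fold change -0.34), beside 812 of all 18703 genes. The 13 genes of the tricarboxylic acid cycle had a median of 0.02, and the 76 mitochondrial ribosomal proteins 0.04.

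The 13 subunit genes of mitochondrial DNA summed to 18000, 24700 and 16900 CPM in Lmln-KO and 24400, 18100 and 16700 CPM in WT. Lmln-KO replicate 2 and WT replicate 1 were high, and the genotypes overlapped. The median log2 fold change was -0.09, with 3 genes positive and 10 negative. Leaving out Lmln-KO replicate 1, 2 or 3 gave 0.01, -0.21 and -0.01, and leaving out WT replicate 1, 2 or 3 gave 0.06, -0.14 and -0.14. With the sex-marker term it was -0.18, among libraries with Y-linked transcripts -0.29 and among those with Xist -0.08. The only Lmln-KO library with Xist is that of the 39-week animal. The plot of list medians sets both groups of subunits side by side. WT replicate 3 stood at 0.03 for the nuclear members and -0.14 for the mitochondrial ones, so the lists did not follow each other in every library.

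**Figure D5:**
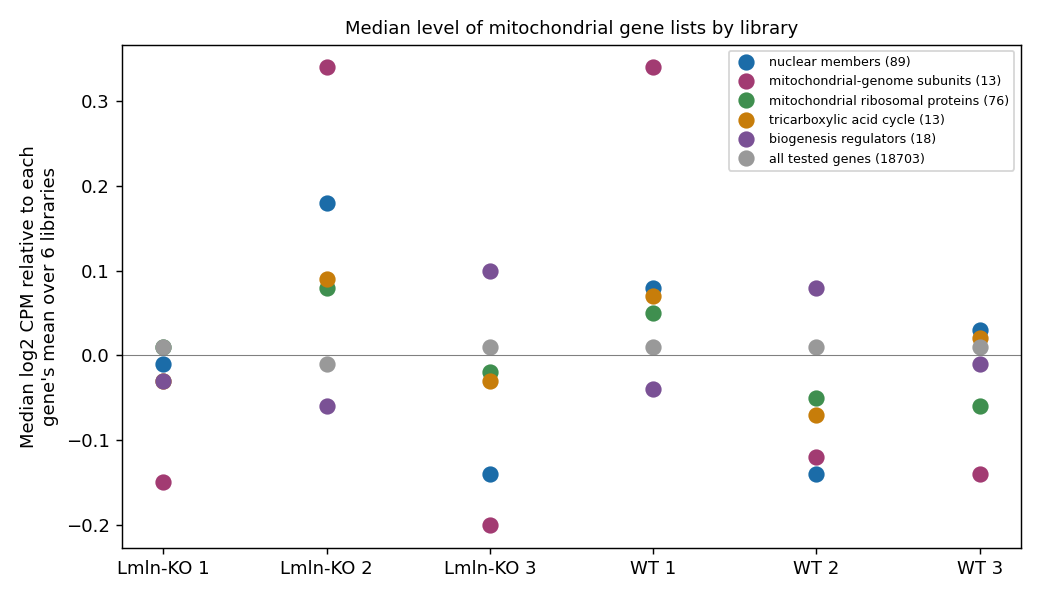
Median log2 CPM of 6 gene lists relative to each gene's mean over the libraries (vertical axis), for each library (horizontal axis), with the number of genes in each list in brackets. The mitochondrial-genome subunits reach 0.34 in Lmln-KO replicate 2 and WT replicate 1, and all tested genes stay between -0.01 and 0.01.

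The promoters of the members were examined for the letters of 4 factors known for control of respiratory genes. RefSeq (GRCm38.p6) promoters, 250 bases before to 50 after a gene's start, were matched for 66 members, 65 of them protein-coding. Both strands were searched. The NRF1 motif, a palindrome that appears in capitals in the Atp5k sequence, stood in 5 of the 65 (7.69%, beside 1.07% of 27025 genes), the ETS letters CCGGAAG, read by GABPA, in 17 (26.2% beside 9.93%), the estrogen-related receptor (ERR) letters AAGGTCA in 8 (12.3% beside 5.38%) and the YY1 letters AAGATGGCG in 7 (10.8% beside 1.64%). At least 1 of the 4 stood in 30 of the 65, and the same share over all genes was not counted. The 27025 genes were not limited to protein-coding ones, as the 65 members were. A match describes letters in a window and is not a site shown to be bound.

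The 200 bases upstream of 4 members of complexes IV and V are printed because they hold these motifs and range from high to low level per length. Motifs are in capitals on the printed strand, 5′ to 3′, and all 4 genes lie on the minus strand. Cox6a1 (chr5:115348959-115349158, 327 TPM) holds the NRF1 letters from position -162 and the ETS letters, in reverse, from -16. Atp5k (chr5:108434400-108434599), which encodes the e subunit at the dimer interface (54.3 TPM), holds the NRF1 letters from -50. Atp5g3 (chr2:73911327-73911526, 215 TPM) holds the ERR letters, in reverse, from -52, and Atp5g2 (chr15:102671048-102671247, 1.44 TPM) the NRF1 letters from -42.
Cox6a1: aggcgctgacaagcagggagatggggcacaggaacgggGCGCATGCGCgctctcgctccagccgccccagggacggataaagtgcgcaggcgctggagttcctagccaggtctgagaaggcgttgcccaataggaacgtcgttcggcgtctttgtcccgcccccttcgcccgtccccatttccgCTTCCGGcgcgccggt
Atp5k: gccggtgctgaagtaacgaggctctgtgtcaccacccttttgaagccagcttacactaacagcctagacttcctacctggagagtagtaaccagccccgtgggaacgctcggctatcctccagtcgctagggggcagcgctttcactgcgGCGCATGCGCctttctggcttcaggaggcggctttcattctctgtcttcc
Atp5g3: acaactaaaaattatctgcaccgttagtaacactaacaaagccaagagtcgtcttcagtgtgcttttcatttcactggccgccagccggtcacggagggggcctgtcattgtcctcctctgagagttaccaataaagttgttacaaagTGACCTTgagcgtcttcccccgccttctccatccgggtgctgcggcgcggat
Atp5g2: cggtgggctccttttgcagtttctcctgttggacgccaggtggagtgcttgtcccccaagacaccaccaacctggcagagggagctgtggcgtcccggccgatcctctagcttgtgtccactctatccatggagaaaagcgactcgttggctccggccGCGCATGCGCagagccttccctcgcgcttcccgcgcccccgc

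Of these 4 genes, picked for their motifs and levels, Cox6a1 had the highest level per exon length among protein-coding members of complex IV. Atp5g2 had the lowest of complex V, but 87.6% of its 36-base stretches also occurred in other genes. By principal transcript length, Cox4i1 (599 TPM) and not Cox6a1 led complex IV. Whether the motifs go with level was not tested. The 4 genes had log2 fold changes of 0.07 (Cox6a1), -0.04 (Atp5k), 0.10 (Atp5g3) and -0.15 (Atp5g2) between genotypes, none of which passed the test (edgeR adjusted p 0.942 to 0.988).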

How the data were processed

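Whole-liver RNA was depleted of ribosomal RNA and sequenced as 36-base read pairs from directional libraries, as the labels' protocols state. Unnormalized counts per gene name were deposited, made with featureCounts 2.0.1 over exons of Ensembl 102 (GRCm38), per the file headers. The header's command gives no paired-end, strand or multi-mapping option, so both reads of a pair add to a count and an antisense gene cannot be separated from its partner. How reads that fit several places were marked or placed is not given. This bears on the levels of gene copies and of genes with shared sequence. Subread 2.0.2 and edgeR 3.36.0 are named in the submitters' processing notes. Which aligner was used is not given in these sources.

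The genotype fit used edgeR 4.0.16 under R 4.3.3 (TMM, filterByExpr with a minimum count of 10, robust quasi-likelihood fit) on all 18703 genes that passed, which hold 99.8% of counts, with Benjamini-Hochberg adjustment at 0.05. Each standard error is |log2 fold change| over the root of the F statistic. Alternatives used DESeq2 1.42.0, limma-voom (limma 3.58.1), other scalings and filters, a term for the sex-marker set, the replicate number as a block and leaving out each library. The smallest chi-square per degree of freedom between any pair of libraries was 12.5, so no library repeated the counts of another. Each was counted as 1 replicate, which does not show that it came from its own animal. TPM divides by the exon length in the count table. Sequence sharing was counted over the principal transcripts of GENCODE M21, pooled for a gene, with 89 of the 95 names found by name and 6 by coordinates. Promoters for 23 members were not matched. Members on chromosome 18 (2 genes) have no sequence printed.

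The members, gene lists and tests were chosen with earlier results of these data known. Named were, in each complex, the 4 members with the smallest p and those with the highest and lowest level, all isoform-set members and all members without overlap, and up to 3 genes with the smallest p in each other list. Other genes were named for their role in a complex, after their values were seen. The steps were tested on simulated counts. Values of 1 member are not reported here, although it is in all counts and medians.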

Additional observations from a re-analysis of the deposited data

How the results depend on the processing

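No member passed the adjusted threshold under any of the 18 alternatives run. Across all tested genes, edgeR called 0, against 22 with DESeq2, 30 with DESeq2 and the sex-marker term, 3 without a filter on low counts, 1 with the sex-marker term and 1 with the replicate block. Leaving out each library gave 0 to 3 calls, with 3 without WT replicate 1. The replicate block changed no call among the members (58 of 89 positive). Same-numbered libraries of the genotypes correlated at 0.465, -0.311 and 0.405 in their deviations from the group means, so the numbers were not taken to pair the samples. Leaving out each library, the log2 fold change of Cox6b1 (0.08) ran from -0.07, without Lmln-KO replicate 2, to 0.22, and that of Cox7a1 (-0.24) from -0.57 to 0.26, without WT replicate 3. The cause was not tested. Complex medians of levels depend on the length used by construction. They were 37.4, 127, 93.2, 44 and 45.1 CPM for complexes I to V without division by length, and 99.8, 256, 220, 129 and 128 TPM with the principal transcript length. The settings with DESeq2 and the sex-marker term, with copies left out or added to their parents, and with the principal transcript length were chosen after seeing the data. With 3 libraries in each group, the 95% interval of a member's log2 fold change reached a median of 0.32 to either side (0.21 to 1.04), and none of the members passed the adjusted threshold at differences of up to 0.66.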

Other observations

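The 13 subunit genes of mitochondrial DNA spread widely in level per length. Those whose 36-base stretches occur almost wholly in annotated nuclear transcripts were low: mt-Co2 (100% shared) was at 251 TPM, mt-Co3 (99.9%) at 359 TPM, mt-Atp6 (99.5%) at 254 TPM, mt-Nd4l (98.9%) at 67.3 TPM and mt-Nd3 (98.1%) at 83.8 TPM. With little or no sharing, mt-Nd1 (0%) was at 5100 TPM, mt-Cytb (3.07%) at 7160 TPM and mt-Nd6 (2.69%) at 1380 TPM. Levels did not follow the share in mt-Co1, at 14100 TPM with 59.7% shared, mt-Nd4, at 1720 TPM with 62.6%, and mt-Atp8, at 50.2 TPM with 4.73% shared. The part of shared sequence in these levels was not tested. The 6 names ending in -ps and a digit that the name rule leaves out had 10 to 262 counts summed over the libraries, the most in Atp5l-ps1.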
